A study of Rattus norvegicus and Homo sapiens with 12 samples.

Results

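The human autosome 21 carried 230 protein-coding genes in the DU145 count table, and 79 of them are described here. These 79 genes had a mean level of at least 10 CPM (counts scaled to a common library size) over the 6 DU145 libraries. The cytokine receptor gene IL10RB, the interferon-induced genes MX1 and MX2, and symbols beginning with MRP, NDUF or ATP5 were left out, which removed 8 genes, 6 of them at 10 CPM or more. The remaining 143 genes lay under 10 CPM, and 93 of those had no count in any library. The table listed 60107 genes in all, of which 14316 had enough counts to be tested. The chromosome was chosen by its F2 against F0 fold changes in these same libraries, and the genes were selected on their mean CPM. Counts of lower and higher genes below are therefore a description of that contrast, and no test of the chromosome as a whole is given.

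DU145 is a human prostate cancer cell line established from a brain metastasis. F0 denotes the parental cells. F2 denotes the cells recovered after repeated exposure to medium conditioned by human mesenchymal stem cells (MSC CM), the medium the study used to select resistant cells. The sample labels give 2 rounds of 72 h, whereas the description of the series gives 3 rounds with 48 h of recovery. Both populations were kept in medium with 10% serum. RNA was measured by QuantSeq, a 3′-end method that reads close to the end of each transcript, with 3 libraries of F0 and 3 of F2 cells. The sources used here do not say whether the 3 F2 libraries came from separate selections, so the spread between libraries may be technical.

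Chromosome 21 is the smallest human autosome, and an extra copy of it causes Down syndrome. Transcript levels of many genes follow the number of copies of their chromosome, although feedback, limiting transcription factors and transcript decay shift single genes away from that relation. The chromosome codes for several parts of larger machines, among them a subunit of the TRiC chaperonin, chains of the interferon receptors and factors of ribosome assembly. The number of chromosome copies was not measured in these libraries.

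The libraries held 15879480 to 16479239 gene counts each. The 5 epithelial markers (3 keratins, EPCAM and CDH1) summed to 1025 to 1097 CPM in F0 and 1325 to 1334 CPM in F2. The keratins made up most of this sum, and CDH1 went the other way, with 11.9, 15.1 and 14.97 CPM in F0 and 5.82, 5.84 and 5.67 CPM in F2. The part of these markers in the chromosome 21 result was not tested. Of 10 markers of mesenchymal stem cells, 8 were under 1 CPM in every library and 5 were at 0, with sums of 2.54 to 3.51 CPM in F0 and 1.79 to 2.81 CPM in F2. Mitochondrially encoded genes took 5.71% to 6.003% of gene counts in F0 and 10.2% to 10.6% in F2. Leaving these genes out of the fit gave a chromosome 21 median of -0.09. That refit only removes their counts from the scaling, and any other part of the mitochondrial difference in the chromosome 21 result was not tested.

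As a set, the 79 genes were slightly lower in F2 than in F0. Their median log2 fold change (F2 over F0) was -0.09, or -6.18% on the linear scale, while the 8035 other autosomal protein-coding genes at 10 CPM or more had a median of -0.01. Of the 79 genes, 55 (69.6%) lay below zero and 24 above, compared with 51.3% of the other genes below zero. The interquartile range was 0.207 for chromosome 21 and 0.219 for the other genes, so the widths were similar. No gene changed 2-fold, and only 9 differed by more than 0.3 on the log2 scale. In bulk RNA, fewer cells with a transcript and less of it per cell cannot be told apart.

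A gene was called lower or higher where the Benjamini-Hochberg adjusted p over all 14316 tested genes was under 0.05 in the quasi-likelihood test of edgeR. By this rule 17 chromosome 21 genes (21.5%) were lower and 5 (6.33%) were higher in F2. Over all tested genes, 8.67% were called lower and 9.49% higher. Among the 8035 other autosomal genes at 10 CPM or more, 886 were called lower and 963 higher. Since the chromosome was selected on this contrast, nothing is read from the gap. All 3 F2 libraries lay below all 3 F0 libraries for 29 of the 79 genes and above them for 7. The corresponding shares were 17.1% and 16.9% over all tested genes, and 19.7% and 19.6% over the other autosomal genes. The counts depended on single libraries, since 10 genes were called lower without F0 replicate 2, and 11 without F2 replicate 1 or without F2 replicate 3. Scaling by library size alone gave 38 lower and 1 higher, since it moved the median of the other autosomal genes to -0.09 as well.

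**Figure D1:**
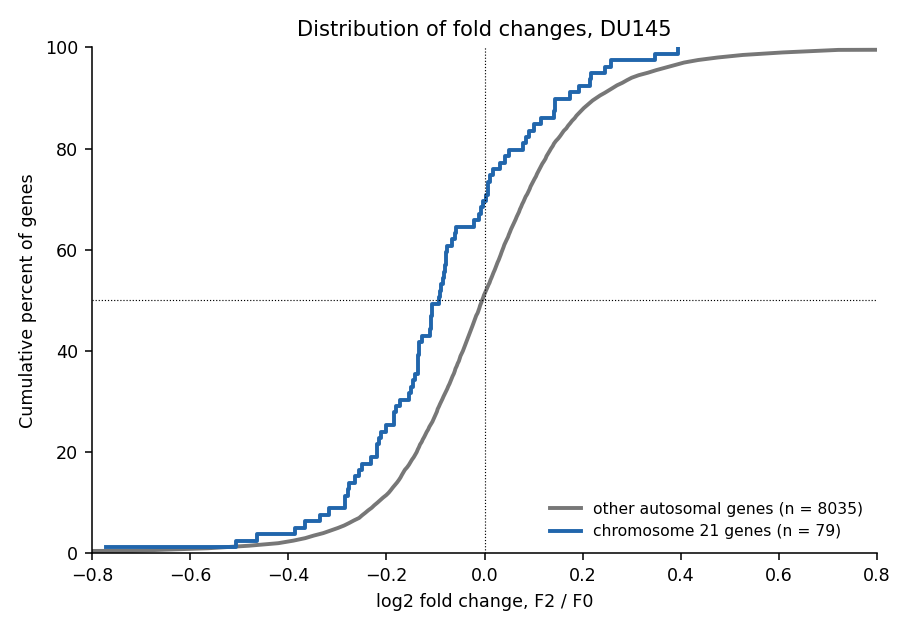
Cumulative percent of genes (y axis) at or below each log2 fold change, F2 over F0 (x axis), for the 79 chromosome 21 genes (blue) and the 8035 other autosomal genes at 10 CPM or more (grey). The blue curve crosses 50% at -0.09 and the grey curve at -0.01, and the curves have a similar slope.

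The median of the 57 genes that were not called was -0.08, with 38 of them below zero (66.7%), whereas the other autosomal genes that were not called had a median of -0.01 with 52.3% below zero. The median standard error of a single chromosome 21 gene was 0.067, so a difference of the size of the median is near the error of 1 gene. Such a difference was mostly not detectable gene by gene with 3 libraries per population. The error was still 0.043 for SON, at a mean of 521 CPM, so depth alone does not set this limit. Whether the uncalled genes share a shift was not tested. For the 39 genes above the median level of 45.6 CPM, the median was -0.09 with 12 called lower (30.8%) and 3 higher (7.69%). The shares of other autosomal genes above the same level were 13.6% and 14.7%. The 40 genes at or below that level had a median of -0.10 with 5 called lower (12.5%) and 2 higher (5%), beside 8.64% and 9.47% of the other autosomal genes there.

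The values per library belong to the contrast that chose the chromosome, and the 3 F2 values share an F0 mean, so they describe the spread and are no separate support. Set against the F0 mean, the median log2 difference of the 79 genes was -0.11 in F2 replicate 1, -0.09 in F2 replicate 2 and -0.10 in F2 replicate 3. Each F0 library, set against the other F0 libraries, gave 0.01, -0.0008 and -0.0012. The F2 values did not overlap the F0 values, and their SD was 0.0129. As a share of all autosomal protein-coding counts, the 79 genes took 0.905%, 0.904% and 0.904% in F0 and 0.832%, 0.831% and 0.828% in F2. The mean share fell by 8.20%. Without PDXK, the gene with the largest difference, the change in share was -6.26%, and without all called genes it was -4.20%.

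PDXK (ENSG00000160209, chromosome 21, 43719094 to 43762307, plus strand, GRCh38) encodes pyridoxal kinase, which turns vitamin B6 into its active coenzyme. It read 439.7, 431 and 416 CPM in F0 replicates 1 to 3 and 256, 248 and 250.2 CPM in F2 replicates 1 to 3. The populations lay far apart, and the mean fell from 429 ± 11.8 to 251 ± 3.97 CPM (SD, n = 3 each). Its log2 fold change was -0.77 ± 0.043 (SE; edgeR adjusted p = 1.9e-10), and it was called in all 6 fits that left out 1 library. PTTG1IP (ENSG00000183255, 44849585 to 44873903, minus strand) encodes a partner of securin, the inhibitor of sister chromatid separation. Its levels were 483, 478 and 480.4 CPM in F0 and 379, 362 and 361 CPM in F2. The F0 libraries differed by a few CPM only, and every F2 library lay well below them, at a log2 fold change of -0.39 ± 0.042 (SE; edgeR adjusted p = 1.6e-06).

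**Figure D2:**
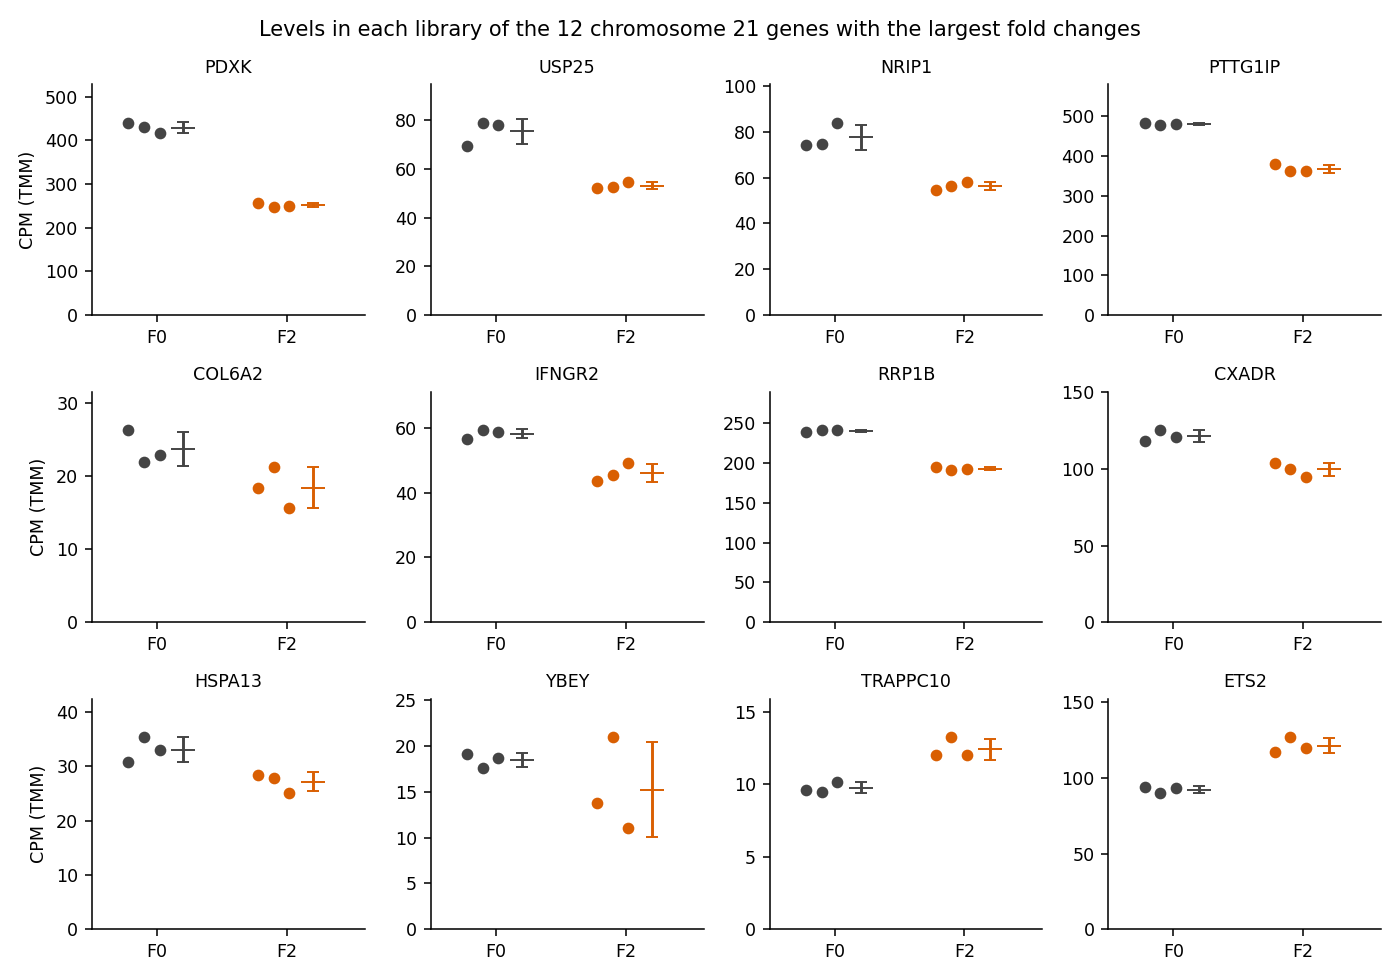
Levels in CPM (y axis, starting at 0, scaled by TMM) of the 12 chromosome 21 genes with the largest fold changes, in F0 (grey) and F2 (orange) DU145 libraries, each point being 1 library and the bar beside it the mean ± SD (n = 3). PDXK, USP25, NRIP1 and PTTG1IP show the widest gaps downward, ETS2 and TRAPPC10 lie higher in F2, and YBEY overlaps because its F2 libraries spread from 11.03 to 20.98 CPM.

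Among the genes of the ubiquitin, SUMO and chaperone list, which held 10 members, 2 were called lower and 2 higher, and the median was 0.005. The role lists here and below were set by hand and place some genes loosely, such as CSTB and RWDD2B in this one. Over all tested genes, 8.67% were called lower and 9.49% higher. Since the chromosome was chosen on this contrast, nothing is read from the calls in any list. USP25 (ENSG00000155313, 15730025 to 15880069, plus strand), a deubiquitinating enzyme, read 69.5, 78.9 and 77.9 CPM in F0 and 52.0, 52.5 and 54.7 CPM in F2. The F2 libraries were close to each other and all below F0, at a log2 fold change of -0.51 ± 0.061 (SE; edgeR adjusted p = 7.1e-06). HSPA13, an Hsp70-type chaperone, was also lower (log2 fold change -0.28) and was called in 4 of the 6 fits without 1 library. SUMO3, a small ubiquitin-like modifier, had the highest level of all members. It read 714, 709 and 704 CPM in F0 and 796, 779 and 775 CPM in F2, so that the populations did not overlap. Its log2 fold change was 0.14 (edgeR adjusted p = 0.014), but only 0.05 and not called with scaling by library size alone. RWDD2B was higher as well, at 0.25, and was called in all 6 fits without 1 library, but not with scaling by library size alone (0.16, edgeR adjusted p = 0.075). CCT8, a subunit of the TRiC chaperonin that folds actin and tubulin, read 369.9, 382 and 395 CPM in F0 and 380.2, 356 and 393 CPM in F2, and its libraries overlapped (log2 fold change -0.02). CSTB, an inhibitor of cathepsins, was at -0.11 (edgeR adjusted p = 0.13). UBE2G2 and TTC3, a ubiquitin-conjugating enzyme and a ubiquitin ligase, were at 0.03 and 0.05, and both values turned to -0.06 and -0.04 with scaling by library size alone.

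The transcription and chromatin list held 17 members, of which 4 were called lower and 1 higher, with a median log2 fold change of -0.09. NRIP1 (ENSG00000180530, 14961235 to 15065936, minus strand), a corepressor that binds nuclear receptors, read 74.3, 74.6 and 83.8 CPM in F0 and 54.5, 56.2 and 58.1 CPM in F2. All F2 libraries were below all F0 libraries, and the log2 fold change was -0.46 ± 0.061 (SE; edgeR adjusted p = 2.0e-05). BRWD1, a bromodomain protein, was lower by the same test (-0.26), as was MIS18A (-0.22), which helps to load the centromeric histone. PRMT2, an arginine methyltransferase and the last member by position, was called lower at -0.18, although F0 replicate 3 (211 CPM) lay below F2 replicate 2 (218 CPM), and it was called in 2 of the 6 fits without 1 library. ETS2 (ENSG00000157557, 38805307 to 38824955, plus strand) was the exception among the called genes of this list. This ETS-family transcription factor gene read 93.8, 89.8 and 93.3 CPM in F0 and 117, 127 and 120.0 CPM in F2. It was higher in every F2 library, and its log2 fold change of 0.40 ± 0.051 (SE; edgeR adjusted p = 1.6e-05) was the highest among the 79 genes. HMGN1, a nucleosome-binding protein and the most abundant gene of the list, was at -0.09 and not called, and RUNX1 was at 0.01.

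The ribosome assembly and RNA processing list held 11 members, 9 of them below zero, with a median of -0.14, and 3 were called, all lower. DIP2A (-0.13, not called) is counted among them but is not an established factor of either process. Over all tested genes, 8.67% were called lower and 9.49% higher, and nothing is read from the calls of this list. RRP1B (ENSG00000160208, 43659548 to 43696079, plus strand), a nucleolar factor of ribosome assembly, read 238, 241 and 241 CPM in F0 and 195, 191 and 192 CPM in F2. The spread inside each population was under 2 CPM as an SD, so the gap of the means (240.1 and 193 CPM) was wide against it, with a log2 fold change of -0.32 ± 0.043 (SE; edgeR adjusted p = 2.7e-05). Its relative RRP1, about 0.1 Mb away, read 49.7, 48.7 and 46.5 CPM in F0 and 42.8, 41.2 and 40.5 CPM in F2. RRP1 was also called lower, at -0.22, in the full fit and in 3 of the 6 fits without 1 library. LTN1, the ubiquitin ligase that clears stalled ribosomes of their nascent chains, was lower at -0.26, with an adjusted p of 0.029 from edgeR and 0.056 from DESeq2, and was called in 3 of the 6 fits without 1 library. URB1, another ribosome assembly factor, was at -0.15 and WDR4, a subunit of a tRNA methyltransferase, at -0.14, and neither was called. SON, a splicing factor of nuclear speckles with one of the highest levels, read 534, 526 and 500.0 CPM in F0 and 509.7, 515 and 539 CPM in F2. Its log2 fold change was 0.003, and it became -0.09 with scaling by library size alone.

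The interferon list was small, with 3 members, all receptor chains that lie close together. IFNGR2 (ENSG00000159128, 33402896 to 33479348, plus strand), the signal-transducing chain of the interferon gamma receptor, read 56.6, 59.4 and 58.6 CPM in F0 and 43.7, 45.5 and 49.2 CPM in F2. It was lower in every F2 library, at -0.34 ± 0.063 (SE; edgeR adjusted p = 0.00081). IFNAR2, a chain of the type I interferon receptor, read 80.8, 84.1 and 75.3 CPM in F0 and 69.9, 71.8 and 62.9 CPM in F2. It was called lower at -0.23 (edgeR adjusted p = 0.012), in 4 of the 6 fits without 1 library. IFNAR1, the other chain of that receptor, read 50.9, 49.7 and 52.0 CPM in F0 and 49.7, 49.7 and 54.9 CPM in F2. Its libraries overlapped, and its log2 fold change was 0.02, or -0.07 with scaling by library size alone. Neighbouring chains of related receptors thus had different values, and the difference between them was not tested.

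The metabolism and redox list held 15 members, 12 of them below zero, with a median of -0.11, and 3 were called, all lower. The shares over all tested genes were 8.67% lower and 9.49% higher, and nothing is read from the calls of this list. Apart from PDXK, the called genes were SOD1 and PIGP. SOD1, the cytosolic copper and zinc superoxide dismutase, read 584, 581 and 596 CPM in F0 and 529.6, 536 and 517 CPM in F2. The populations did not overlap, and the log2 fold change was -0.15 ± 0.040 (SE; edgeR adjusted p = 0.011), but SOD1 was called in only 3 of the 6 fits without 1 library. PIGP, a subunit of the enzyme that starts glycosylphosphatidylinositol anchors, was lower at -0.25 and also called in 3 of those 6 fits. CBR1, a carbonyl reductase, was at -0.11 with separated libraries but not called. GART, a trifunctional enzyme of purine synthesis, was close to zero, at -0.003. PFKL, the liver form of phosphofructokinase, was at 0.17 with all F2 libraries above F0, and was not called (edgeR adjusted p = 0.076).

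The matrix, adhesion and cell surface list held 7 members, with 2 called lower and 1 higher. CXADR (ENSG00000154639, 17512382 to 17593579, plus strand), a junction protein that serves as a virus receptor, read 118, 125 and 121 CPM in F0 and 104, 100.2 and 94.9 CPM in F2. Its log2 fold change was -0.29 ± 0.051 (SE; edgeR adjusted p = 0.00056), and it was called in all 6 fits without 1 library. COL6A2, a chain of collagen VI, read 26.3, 21.9 and 22.8 CPM in F0 and 18.4, 21.2 and 15.6 CPM in F2. The gap was narrow at this level, and COL6A2 was called lower at -0.37 in the full fit and in 3 of the 6 fits without 1 library. COL6A1, which codes for another chain of the same collagen, was at 0.11 and not called. APP, the amyloid precursor protein gene and the most abundant of this list, was at -0.08 and not called. ITGB2, the beta chain of leukocyte integrins, was called higher at 0.26, although F0 replicate 3 (44.9 CPM) lay above F2 replicate 2 (44.1 CPM). That call was lost with DESeq2 (adjusted p = 0.053), with scaling by library size alone (edgeR adjusted p = 0.16) and in 4 of the 6 fits without 1 library. The antisense gene ITGB2-AS1, which overlaps it on the opposite strand, was also higher (log2 fold change 0.75). Its mean level was 3.09 CPM, beside 45.6 CPM for ITGB2. The strand setting of the counting is not given, so reads where these genes overlap may not have been told apart.

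The membrane traffic, cytoskeleton and centrosome list held 11 members with a median of -0.09, 1 called lower (PTTG1IP) and 1 higher. DONSON (-0.01), placed in this list, is known mainly for DNA replication. ITSN1, an endocytic scaffold, was at 124 CPM in each F0 library and at 117, 116 and 115 CPM in F2, which is separated but not called (log2 fold change -0.09). TRAPPC10, a subunit of a vesicle tethering complex, lay just above the level limit. It read 9.62, 9.45 and 10.2 CPM in F0 and 12.02, 13.2 and 11.99 CPM in F2, with a log2 fold change of 0.35 (edgeR adjusted p = 0.033). That call was lost in each of the 6 fits without 1 library, with DESeq2 (adjusted p = 0.077) and with scaling by library size alone (edgeR adjusted p = 0.095). The kinases and signalling list held 2 members, DYRK1A at -0.20 and RCAN1 at -0.13, a kinase and a calcineurin inhibitor known from work on Down syndrome, and neither was called. The adjusted p of DYRK1A was 0.059 from edgeR, and it was called lower with the replicate block (edgeR adjusted p = 0.033) and with scaling by library size alone (0.0062). Outside the lists, 3 members had no assigned role: CFAP298, C21orf58 and ENSG00000275464.

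In order along the chromosome, the median was below zero in every window of 5 Mb that held more than 1 of the genes. The first member, ENSG00000275464, lies alone on the short-arm side (5130871 to 5154734) and was at 0.01. Next, HSPA13 and NRIP1 had a median of -0.37 in the window from 10 to 15 Mb, and USP25, CXADR and BTG3 a median of -0.29 from 15 to 20 Mb. These 5 genes, together with the following GABPA, APP, N6AMT1 and LTN1, formed the longest run of one sign, with 9 genes below zero between 14.4 and 28.99 Mb. The gene-rich windows gave medians nearer to the whole, namely -0.05 for 8 genes from 25 to 30 Mb, -0.13 for 19 genes from 30 to 35 Mb, -0.09 for 16 genes from 35 to 40 Mb, -0.09 for 18 genes from 40 to 45 Mb and -0.11 for 12 genes from 45 to 50 Mb. Of 75 running medians over 5 consecutive genes, 64 were below zero and 11 above, between -0.29 and 0.14. The highest lay around 44 Mb, where TRAPPC10, PFKL, UBE2G2 and SUMO3 were the longest run above zero, next to PTTG1IP at -0.39. Overlapping running medians share genes and are given as a description.

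**Figure D3:**
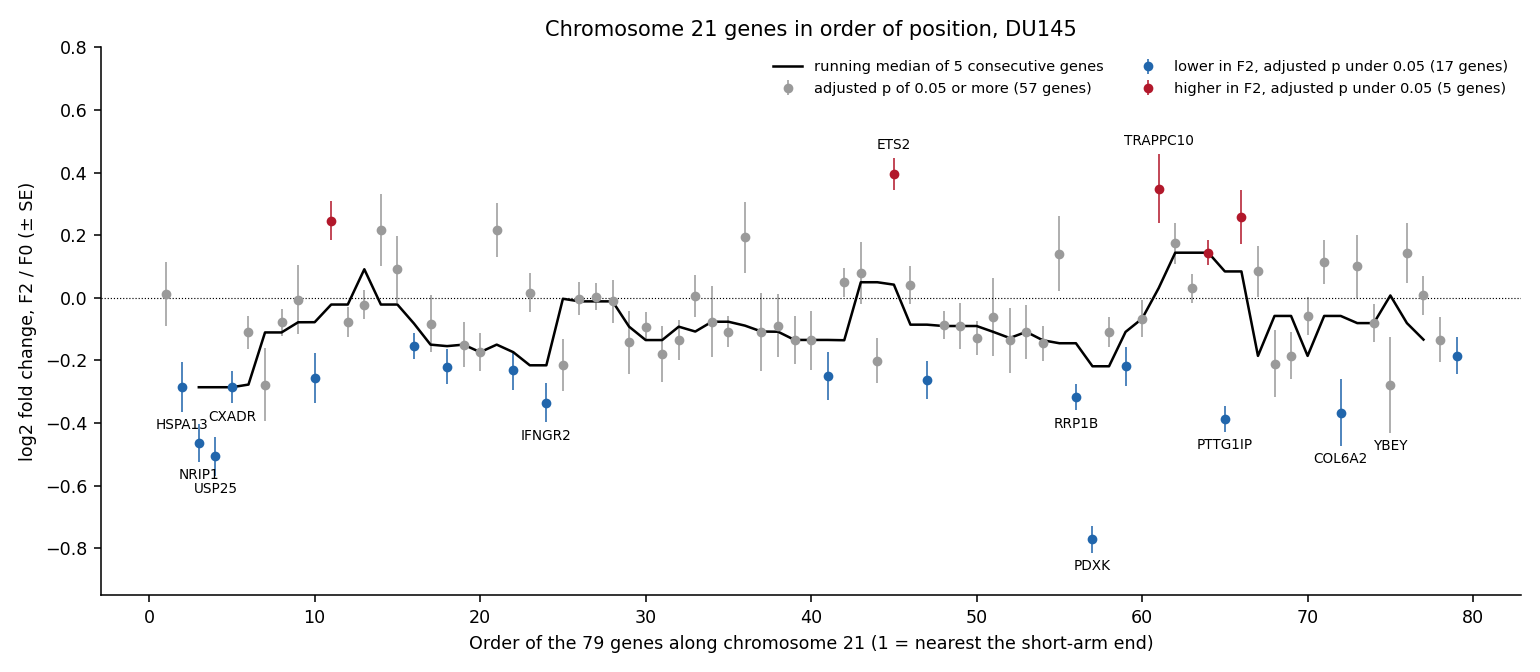
Log2 fold change, F2 over F0, with its standard error (y axis) of the 79 chromosome 21 genes in order of position (x axis, rank from the short-arm end), in blue for the 17 genes called lower, in red for the 5 called higher and in grey for the others, with the running median of 5 genes as a line. The line stays below zero for 64 of its 75 points, lowest at the left end around NRIP1 and USP25 and highest near TRAPPC10 and SUMO3.

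Under the same fit, chromosome 21 had the lowest median log2 fold change of the 22 autosomes, followed by chromosome 5 at -0.09 (384 genes), chromosome 4 at -0.08 (265 genes), chromosome 8 at -0.07 (311 genes) and chromosome 18 at -0.07 (130 genes). The medians of chromosomes 21 and 5 were -0.092 and -0.085. Leaving out 1 library at a time gave chromosome 21 medians from -0.104 to -0.080, a range that holds both values of the full fit. The chromosome 5 medians in those fits were not computed, so whether the order of these chromosomes changes was not tested. Chromosome 5 had higher shares than chromosome 21 of genes below zero (70.8%) and of genes called lower (24.7%). Medians were below zero for 10 autosomes and above for 12, and the highest was 0.05 on chromosome 7. The interquartile range of chromosome 21 overlapped that of each other autosome. That range is the spread of single genes and not the error of a median, so the overlap does not compare the medians.

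**Figure D4:**
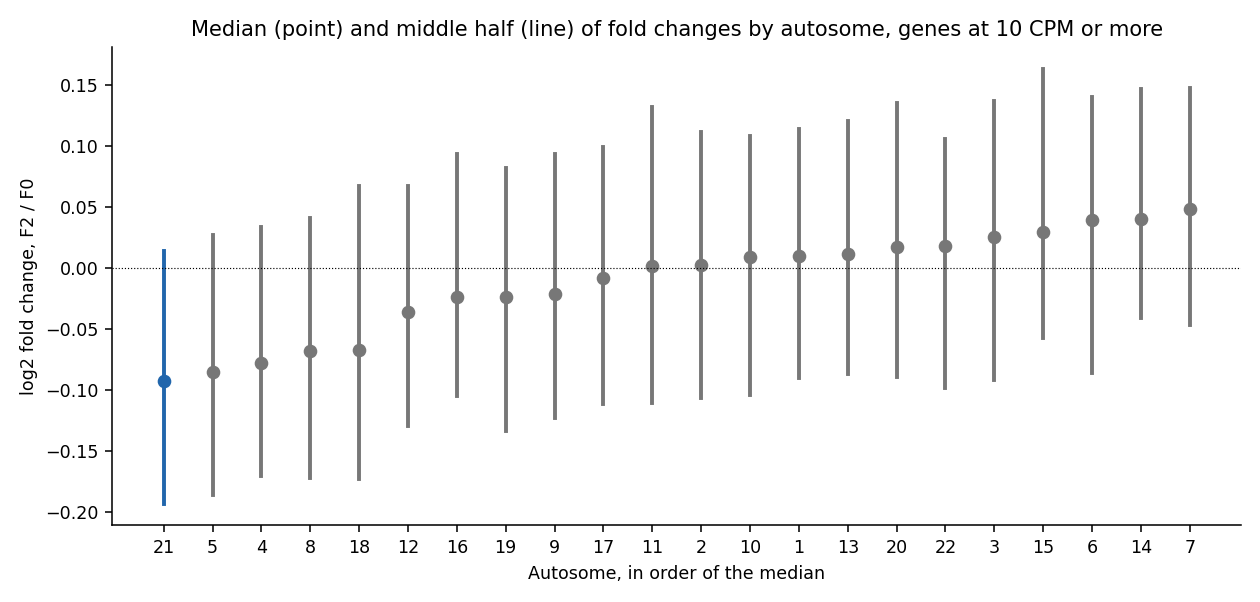
Median log2 fold change, F2 over F0 (points), and interquartile range (lines) of the protein-coding genes at 10 CPM or more on each autosome (x axis, in order of the median). Chromosome 21 (blue) has the lowest median, -0.092, close to chromosome 5 at -0.085. All lines overlap, but they show the spread of single genes and not the error of the medians.

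The level limit was not a sharp border in the fold changes. Just inside it were CBR3 (10.5 CPM, log2 fold change 0.19), TRAPPC10 (11.1 CPM, 0.35) and DOP1B (11.95 CPM, -0.11). Just outside it were PWP2 (9.51 CPM, -0.15), ZBTB21 (8.34 CPM, -0.03) and LRRC3 (6.89 CPM, -0.36). The 2 transcript ends of PWP2 also occur in ENSG00000275464, a member at 16.2 CPM, so the level of PWP2 and its place outside the limit are uncertain. Of the 143 genes under the limit, 27 had enough counts to be tested. These had a median of -0.07 with 18 below zero, and edgeR called 2 of them, both higher, namely B3GALT5 at 0.57 and MAP3K7CL at 0.91. The 36 tested non-coding genes of the chromosome were split about evenly, 19 below and 17 above zero, with a median of -0.06 and a median standard error of 0.30, and with URB1-AS1 called lower (-0.34) and ITGB2-AS1 and CLDN14-AS1 (0.83) called higher.

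Some chromosome 21 genes have near-identical copies on its short arm in GRCh38, and reads from the end of such transcripts cannot be assigned. Of the 79 genes, 6 had at least 1 transcript whose last 101 bases, the read length, also occur in another gene. They were ENSG00000275464, CFAP298, IFNAR2, TTC3, GET1 and TRAPPC10. Only ENSG00000275464 and TRAPPC10 share an end between the short arm and the long arm. The others share some of their ends with genes that are not such copies. CFAP298 shares 1 of 4 with CFAP298-TCP10L and IFNAR2 2 of 6 with IFNAR2-IL10RB. GET1 shares 2 of 8 with GET1-SH3BGR and TTC3 1 of 10 with TTC3P1. ENSG00000275464 shares its only transcript end with PWP2, and the pair summed to 26.1 ± 2.54 CPM (SD) for F0 and to 25.3 ± 1.86 CPM for F2, a difference within the SD. TRAPPC10 shares 1 of 2 ends with ENSG00000280433, which was at -0.26. The sum of TRAPPC10 and that copy went from 14.3 ± 1.26 to 16.2 ± 0.495 CPM, a log2 ratio of 0.18, beside 0.35 for TRAPPC10 alone. Reads that were not uniquely placed are missing from both sums, so the sums are no corrected levels. U2AF1, a splicing factor with such a copy, was read at 1.35 CPM and its copy at 0, and CBS at 0.402 CPM with its copy at 0, so their levels are uncertain. Without the 6 genes, the median of the other 73 was -0.11. A further limit is overlap, since 27 of the 79 genes overlap another tested gene, such as IFNGR2 with TMEM50B on the opposite strand and SON with GART and DONSON.

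Many chromosome 21 products work with proteins coded on other chromosomes. For 19 of the 79 genes, 46 partner genes from a list of complexes reached 10 CPM. The median log2 fold change was -0.08 for these 19 genes and -0.02 for their partners, and the chromosome 21 gene lay below the median of its own partners in 13 of 19 cases. Among the 19, 5 were called lower and 2 higher, and among the 46 partners 4 were called lower and 3 higher. The shares over all tested genes were 8.67% and 9.49%. Since the chromosome was chosen on this contrast, nothing is read from these counts or from the 13 of 19 cases. Some of the 13 were near ties, such as SOD1 at -0.154 beside a partner median of -0.137. CCT8 (-0.02) lay above the median of the 7 other TRiC subunits measured (-0.06), of which CCT3 was called lower at -0.12. IFNGR2 (-0.34) stood beside the kinase gene JAK1 at -0.03. MIS18A (-0.22) stood beside OIP5 at -0.01. LTN1 (-0.26) stood beside NEMF at 0.13, another factor of ribosome quality control. GABPA, the DNA-binding subunit of GA-binding protein, was at -0.28 and not called, with GABPB1 at -0.13 and GABPB2 called higher at 0.33. MCM3AP (-0.08), the scaffold of the TREX-2 mRNA export complex, had 2 partners called lower, CETN3 at -0.32 and ENY2 at -0.15. PFKL (0.17) stood beside PFKM at 0.05 and PFKP, called lower at -0.16. The difference between a gene and its partners was not tested.

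**Figure D5:**
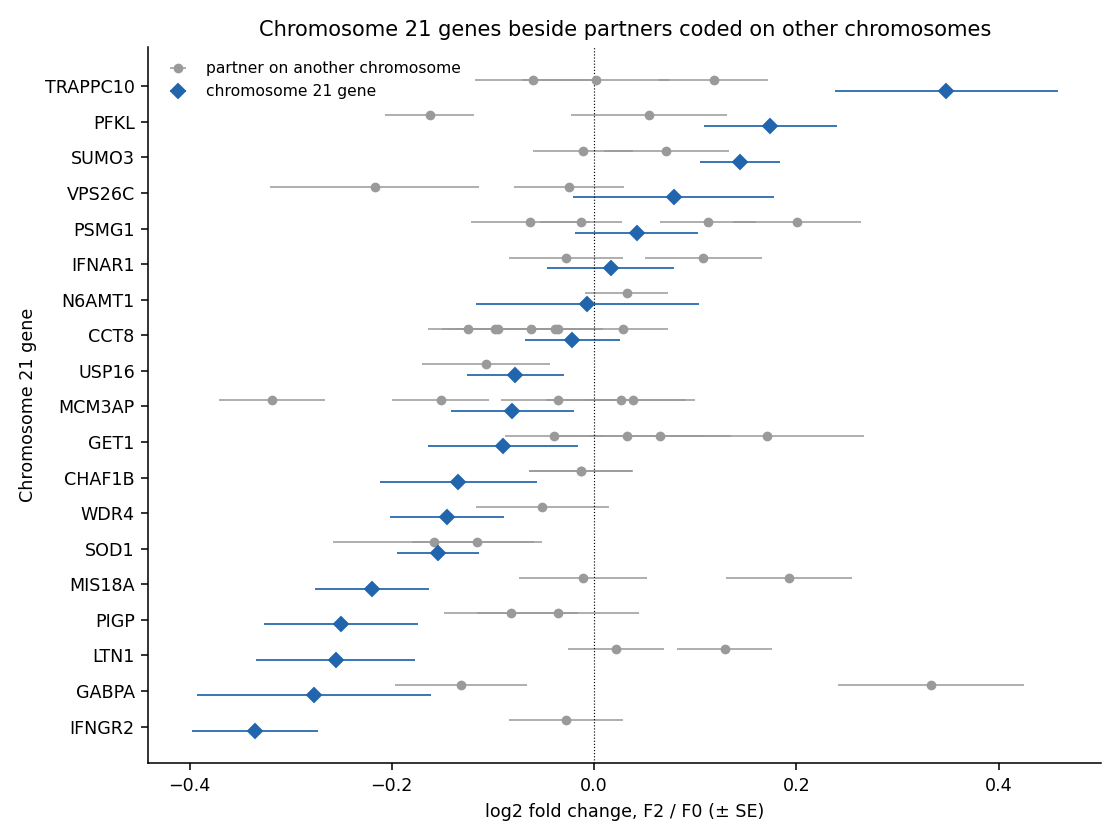
Log2 fold change, F2 over F0, with its standard error (x axis) of 19 chromosome 21 genes (blue diamonds, one row each) and of their partner genes on other chromosomes at 10 CPM or more (grey points). In 13 of the 19 rows the diamond lies left of the median of its partners, as for IFNGR2, LTN1 and MIS18A, and in the rows of TRAPPC10, SUMO3 and PFKL it lies to the right.

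The 79 genes resembled the other autosomal genes at 10 CPM or more in base composition, with a median GC content of 48.6% in their transcripts in each set. Their transcripts were longer, with a median of 3811 against 3112 bases, as were their 3′ untranslated regions (1522 against 1036 bases). The median number of exons was 11 and 10. Within 4 bins of GC content that each held 1 in 4 of the other genes, the chromosome 21 medians from the lowest to the highest bin were -0.22 (17 genes), -0.05 (22), -0.11 (24) and -0.06 (16), and those of the other genes lay between -0.01 and 0.01. The chromosome 21 median minus that of the other genes ran from -0.21 in the bin lowest in GC to -0.04 in the next bin. These values belong to the contrast that chose the chromosome, and the bins held few of its genes. The part of GC content or transcript length in this result was not tested.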

How the data were processed

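RNA of F0 and F2 DU145 cells was profiled by QuantSeq from 500 ng of RNA with 101-base reads, in 3 libraries per population out of 12 in the series. The authors deposited raw counts per gene, without normalization. The submitters' processing notes list STAR 2.5.2a, HTSeq 0.6.0 and GRCh38, and the strand setting is not given in the sources used here. Lines that name no gene were left out: reads outside genes were 9.60% to 11.9% of uniquely placed reads and ambiguous reads 1.36% to 1.50%. The rat table was not used here.

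Positions and gene types came from GENCODE release 29 by Ensembl identifier (56531 of 60107 found). The filter was filterByExpr of edgeR (a minimum count of 10 and a minimum total of 15), the scaling was TMM, and genes were tested, F2 against F0, by the two-sided quasi-likelihood test of edgeR 4.0.16 in R 4.3.3, with Benjamini-Hochberg adjustment over 14316 genes. CPM values are TMM-scaled. The script was tested on simulated data. For 3 against 3 libraries, an exact permutation test of a single value cannot go below p = 0.10.

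Named genes were the 12 members with the largest absolute log2 fold change, the 6 with the highest level, the ends of the order, the 3 on each side of 10 CPM, members with partners, and up to 4 of the highest level per role group. Other called members, and tested genes outside the rule that were called, were named after their values were seen. Alternatives were size factors by median ratio, library size alone, other count filters, DESeq2 1.42.0, a replicate block, each library left out, limits of 5 and 20 CPM and, added after the data were seen, leaving out members with a shared transcript end. Members, role lists and partners were chosen with earlier results of these data known. Some genes of the marker and partner lists are not reported here.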

Additional observations from a re-analysis of the deposited data

How the results depend on the processing

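The median log2 fold change of the 79 genes stayed below zero under every alternative run, and relative to the other autosomal genes it lay between -0.11 and -0.08 in the 16 that gave both medians (-0.09 as reported). The limits of 5 and 20 CPM were applied to the members only, and the other autosomal genes stayed at 10 CPM or more. The lowest value, -0.11, came from the limit of 20 CPM. Scaling by library size alone moved it to -0.18 with 38 genes called lower, 1 called higher, 45 separated lower and 4 separated higher, while the other autosomal genes moved to -0.09. DESeq2 called 3 genes higher in place of 5. The median was -0.12 for the 60 members at 20 CPM or more, and -0.11 without the members that share a transcript end. Leaving out 1 library at a time gave medians of -0.10 to -0.08, 10 to 19 genes called lower, 2 to 4 called higher, 31 to 36 separated lower and 7 to 13 separated higher. Fewest were called lower without F0 replicate 2 (10) and without F2 replicates 1 or 3 (11 each). Only 2 or 3 were called higher in these fits, and 13 were separated higher without F2 replicate 2. Fewer libraries make a call harder and separation easier by construction. No gene called in either fit changed sign. DESeq2 lost the calls of LTN1, TRAPPC10 and ITGB2. Library size alone lost RWDD2B, TRAPPC10, SUMO3 and ITGB2 and gained 21 lower calls, and 10 uncalled genes, among them SON, IFNAR1 and PSMG1, changed sign there, as did 1 to 8 uncalled genes in each fit without 1 library. With no filter beyond 1 count, DYRK1A was called.

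Replicates 1 to 3 of F0 and F2 share only a number. The correlations of deviations of same-numbered libraries were 0.06, -0.02 and 0.06, and those of differently numbered libraries lay between -0.08 and 0.02. All were small, so same-numbered libraries were not treated as pairs. With the replicate block the median was -0.09, 19 genes were called lower and 5 higher, the added calls being TMEM50B and DYRK1A. Depth limits single genes near 10 CPM, where an SE of about 0.1 exceeds the median shift.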
